A study of Mus musculus with 8 samples.

Results

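Hypertrophic chondrocytes are the enlarged cells at the end of the cartilage maturation sequence, and 8 genes that mark or regulate them were followed here: Col10a1, Runx2, Runx3, Mef2c, Mef2d, Mmp13, Panx3 and Hdac4. The members were the probe sets that the array annotation assigns to 1 of these symbols alone, 18 of the 45037 probe sets considered, and they covered 7 of the 8 genes. Runx2 was named by no such probe set and was not analysed here. Of the 18, 16 were bright enough to be tested (mean signal over all arrays above the median of 105.9), at least 1 for each of the 7 genes, and 1 probe set each of Runx3 and Panx3 was not.

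RNA came from primary chondrocytes that were freed by collagenase and trypsin from rib cages of FVB mouse embryos at E18.5. The 4 control samples were wild type and the 4 transgenic samples were Hoxd4 transgenic, on the same strain and at the same age. Each of 4 litters gave 1 control and 1 transgenic pool of embryos, and each pool was hybridised to 1 array. Litter numbers below are the replicate numbers of the arrays, and same-numbered arrays were taken as the pair of a litter. Neither the size of a pool nor the promoter driving the transgene is known from the labels.

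Cartilage that will turn into bone grows as chondrocytes stop dividing, enlarge and replace their matrix. Runx2 and Runx3, related runt-domain transcription factors, and the MADS-box factors Mef2c and Mef2d promote this step, and Hdac4, a class II histone deacetylase, binds Mef2 and Runx2 proteins and holds it back. Col10a1 encodes type X collagen, the matrix protein that defines hypertrophic cartilage. Panx3 encodes a channel protein of prehypertrophic and hypertrophic cells, and Mmp13 encodes the collagenase of the last hypertrophic layer.

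The defining cartilage genes gave high signals in both groups. All 6 chondrocyte markers passed the filter, with Col2a1, the main cartilage collagen, with a signal of 42268 ± 3676 over the 4 control arrays (mean ± SD) and of 43439.8 ± 5866 over the 4 transgenic arrays. Median signals per array lay between 100.5 and 115, and rank correlations between arrays between 0.932 and 0.942. The brighter of a pair of probe sets assigned jointly to Hoxd4 and Hoxd3 was higher in the transgenic array in 3 of 4 litters (log2 fold change 0.87, exact two-sided permutation p = 0.40) and went against the label in litter 4, where the control array read 256 and its transgenic partner 13.0. The dimmer probe set of the pair was higher in the transgenic array in 2 of 4 litters (log2 fold change -0.12, exact two-sided permutation p = 0.66). Groups below are those of the labels. The brightest Xist probe set, a transcript of the inactive X chromosome, was at 79.8 and 47.2 in transgenic arrays 1 and 3 and between 3266 and 13760.0 in the other 6 arrays, and whether pools differed in sex is not given by the labels.

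Proximal promoters of 3 members are printed because the regulators in this group bind such sequences and because these members represent the marker collagen, the marker protease and a regulator. They run from 250 bases before to 50 bases after the annotated start, are from RefSeq on build GRCm38.p6, are written 5′ to 3′ on the gene's strand, and show in capitals each match to the RUNX core ACCACA or its reverse complement TGTGGT. Col10a1 lies on chromosome 10 (chr10:34389731-34390030, plus strand), Mmp13 on chromosome 9 (chr9:7272264-7272563, plus strand) and the first Runx3 promoter on chromosome 4 (chr4:135120395-135120694, plus strand).
Col10a1: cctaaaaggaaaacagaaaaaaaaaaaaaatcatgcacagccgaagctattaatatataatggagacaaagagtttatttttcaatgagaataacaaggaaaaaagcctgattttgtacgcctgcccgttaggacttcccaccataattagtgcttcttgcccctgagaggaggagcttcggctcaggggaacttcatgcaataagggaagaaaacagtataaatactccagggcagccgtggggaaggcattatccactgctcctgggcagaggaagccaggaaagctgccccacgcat
Mmp13: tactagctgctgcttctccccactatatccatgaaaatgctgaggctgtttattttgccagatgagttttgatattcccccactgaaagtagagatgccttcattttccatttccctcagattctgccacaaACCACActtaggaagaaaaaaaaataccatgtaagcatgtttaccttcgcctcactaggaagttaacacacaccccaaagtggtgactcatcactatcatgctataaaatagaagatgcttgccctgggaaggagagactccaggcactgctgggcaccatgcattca
Runx3: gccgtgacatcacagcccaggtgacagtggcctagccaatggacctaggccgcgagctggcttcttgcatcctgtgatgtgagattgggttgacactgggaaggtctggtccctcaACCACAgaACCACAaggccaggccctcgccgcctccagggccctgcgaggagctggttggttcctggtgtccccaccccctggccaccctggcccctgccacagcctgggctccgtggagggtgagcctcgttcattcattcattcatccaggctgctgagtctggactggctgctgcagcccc
The Mmp13 promoter held 1 RUNX match, whose first base was base 133 of the window. The Runx3 promoter held 2, at bases 117 and 125. A second Runx3 promoter (chr4:135152295-135152594, plus strand), not printed, held none, and neither did the Col10a1 window. Promoters were listed for 7 of the 8 genes (10 windows, all but Panx3), and 3 of the 10 held a RUNX match, the third being that of Runx2. Of all 32851 promoters listed, 16.8% held a RUNX match and 1.81% held at least 2. The sequence TAAAAATA (TATTTTTA on the other strand), 1 form of the MEF2 core, was in 0 of the 10 windows and in 2.72% of all promoters. Other forms of that core were not searched for. The HOX-PBX motif TGATNNAT (ATNNATCA on the other strand) was in 0 of the 10 and in 8.85% of all. No motif contains another. A match is a description of the letters in this window, and the lack of one says only that they are not in it.

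No hypertrophic marker or regulator passed the test between the genotype labels, and neither did any other tested probe set. Most member intervals lay within a 1.5-fold change either way, as did most of those of all tested probe sets. None of the 16 tested probe sets passed an adjusted p of 0.05 in limma (lowest adjusted p 0.9997), where 0% of all 22518 tested probe sets passed. None of the 16 had an unadjusted p under 0.05, against 3.29% of all tested. The signals of both groups overlapped for all 16, whereas 2.27% of all tested probe sets had groups that did not overlap. Values were higher in transgenics for 6 and lower for 10 of the 16, with a median log2 fold change of -0.02 (0.003 over all tested), and 51.2% of all tested probe sets were higher in transgenics. The 95% interval lay wholly within a 1.5-fold change either way for 14 of 16, beside 85.5% of all tested, and within 2-fold for 15 of 16, beside 98.7%. These are log2(signal + 32) values, on which changes of dim probe sets appear smaller than those of their signals. In such cell pools, fewer cells of a type and less RNA per cell cannot be told apart.

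**Figure D1:**
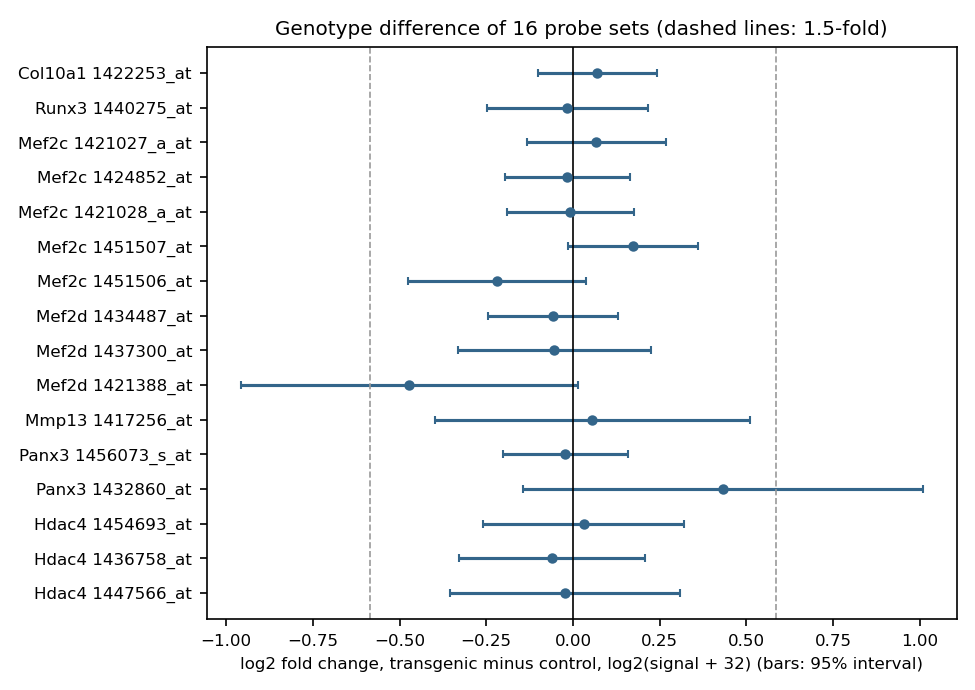
Log2 fold change (x axis, transgenic minus control on the log2(signal + 32) scale) of the 16 tested probe sets (y axis), with points for the estimate and bars for its 95% interval in limma. All 16 intervals include 0, and those of Mef2d 1421388_at and Panx3 1432860_at reach beyond the dashed lines at 1.5-fold.

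Among the markers, Col10a1 was measured by 1 probe set. Its signals were 8035, 7715, 7808 and 7003 in the control arrays of litters 1 to 4 and 8156, 7728, 7086 and 9237 in the transgenic arrays. The transgenic arrays held both the highest value, in litter 4, and the second lowest, in litter 3, so the groups overlapped and the transgenic values spread more widely. The means were 7640.2 ± 446 (SD, n = 4) and 8052 ± 905 (SD, n = 4), a log2 fold change of 0.07 (95% interval -0.10 to 0.24, adjusted p 0.9997 in limma). The interval thus reached neither a 1.5-fold rise nor a 1.5-fold fall.

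Panx3 was read by 3 probe sets, which differed in quality. The brightest, of a kind that can bind several transcripts, had signals of 2996, 3699.5, 3231 and 3192 in controls and of 3534, 3324, 2839.9 and 3221 in transgenics. The lowest and the second highest of the 8 were both transgenic, and the log2 fold change was -0.02 (95% interval -0.20 to 0.16). A second, 1432860_at, lay just above the filter with 44.7, 177, 109.7 and 89.7 in controls and 114, 147, 184 and 130.2 in transgenics. It was higher in the transgenic array in 3 of 4 litters, with a log2 fold change of 0.43 (95% interval -0.14 to 1.01), the only interval of the 16 that reached past 2-fold. The dimmest, 1454387_at, was below the filter, at 13.9, 35.2, 52.6 and 41.1 in controls and 10.8, 25, 11.3 and 7.12 in transgenics. Each of the 4 litters had the lower value in its transgenic pool, the groups still overlapped, and its log2 fold change of -0.55 gave an exact two-sided permutation p of 0.057 (the smallest possible over 70 assignments being 0.0286). The 3 Panx3 probe sets therefore did not share a direction, and the one with the highest signal showed the smallest difference.

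Mmp13 was read by 1 probe set of low signal, at 111, 145, 169 and 246 in controls and 129.9, 217, 159.6 and 180.2 in transgenics. Both the lowest and the highest value were in controls. The difference was 0.06 on the log2 scale, with a 95% interval of -0.40 to 0.51, wider than that of Col10a1. The highest signal was 2.22 times the lowest for Mmp13 and 1.32 times for Col10a1.

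**Figure D2:**
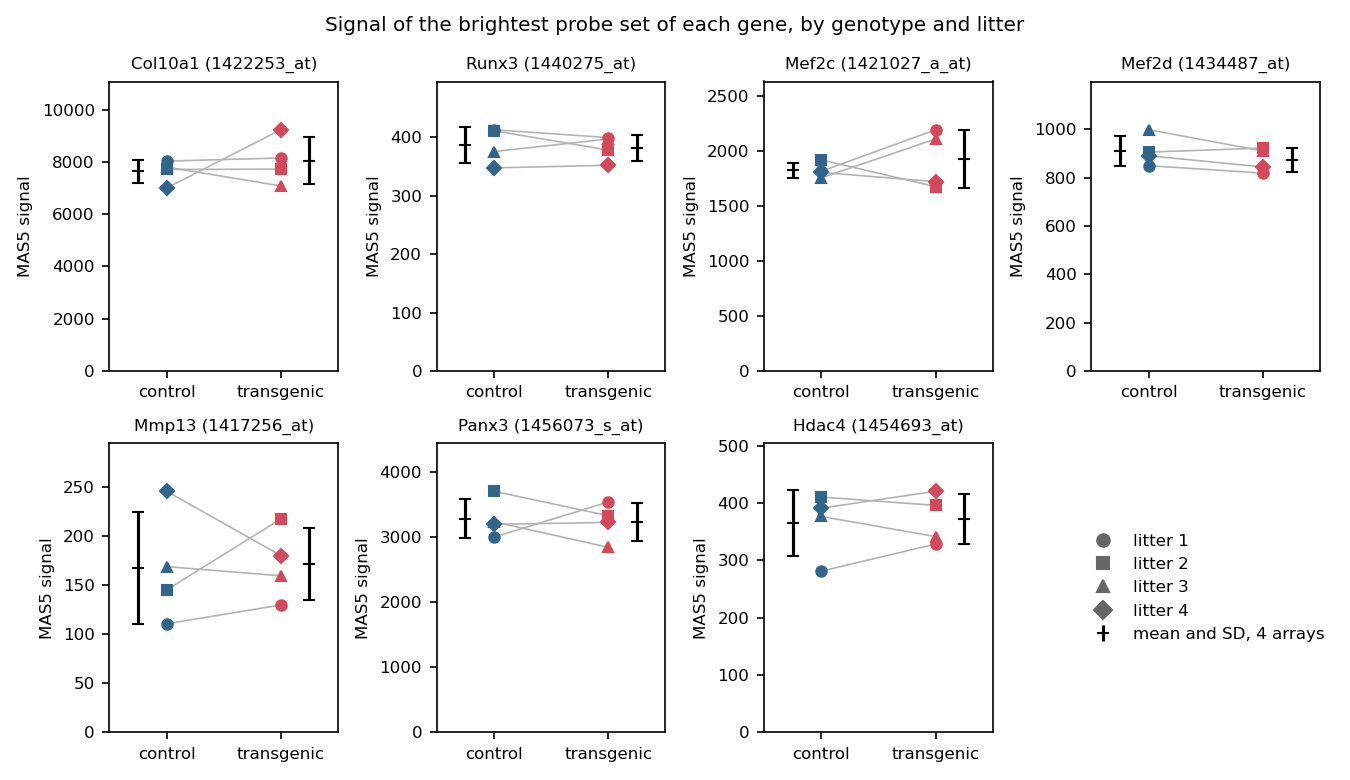
MAS5 signal (y axis, linear, from 0) of the brightest probe set of each of the 7 genes in control and transgenic arrays (x axis), with 1 marker shape per litter, grey lines joining the arrays of a litter, and bars for mean and SD of 4 arrays. Control and transgenic values overlap in every panel, and Mmp13, from 111 to 246, has the widest relative spread.

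Of the Runx pair only Runx3 had values. Its brighter probe set gave 413, 411, 376 and 348 in controls and 399, 378, 397 and 352 in transgenics. The ranges were nearly the same, with the lowest value of each group in litter 4. The difference was -0.02 on the log2 scale (95% interval -0.25 to 0.22). A dimmer Runx3 probe set was below the filter, between 10.9 and 116 over the 8 arrays, and had a log2 fold change of 0.35 (exact two-sided permutation p = 0.40).

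Mef2c, which is also transcribed in muscle and endothelium, had 5 tested probe sets, the most of any member. The brightest, 1421027_a_at, gave 1816, 1920.3, 1756 and 1806 in controls and 2194, 1677, 2110.4 and 1722 in transgenics. Its transgenic arrays held the 2 highest values, in litters 1 and 3, and the 2 lowest, in litters 2 and 4, and the log2 fold change was 0.07 (95% interval -0.13 to 0.27). Probe sets 1424852_at and 1421028_a_at had log2 fold changes of -0.02 and -0.01.

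A pair of Mef2c probe sets that the annotation ties to the same accession lay on opposite sides of 0. Probe set 1451507_at had signals of 728, 720.3, 761 and 684 in controls and 888, 830.0, 758 and 809 in transgenics. It was higher in the transgenic array in 3 of 4 litters, and the log2 fold change was 0.17 (95% interval -0.01 to 0.36, exact two-sided permutation p = 0.057). Probe set 1451506_at had signals of 704, 715, 799 and 660.3 in controls and 503, 752, 572 and 648 in transgenics. Its 2 lowest values were the transgenic arrays of litters 1 and 3, the arrays in which Xist was lowest, and the log2 fold change was -0.22 (95% interval -0.48 to 0.04). In a fit that also held the level of Xist the latter value was -0.01 and that of 1451507_at 0.18. Mean Xist signal was 9395 in controls and 2900 in transgenics, so this fit cannot cleanly tell Xist and genotype apart. The part of Xist in this difference was not tested.

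Whether the probe sets of a gene differed in their response was tested over all 5147 genes with at least 2 tested probe sets, in a comparison added after these values were seen (diffSplice in limma). Mef2c had an unadjusted p of 0.063 and an adjusted p of 0.9999, and 0% of genes passed an adjusted p of 0.05. Mef2d, Panx3 and Hdac4 had unadjusted p values of 0.135, 0.152 and 0.871. None of these 4 genes was under 0.05, against 3.73% of genes. In the test of each probe set against the others of its gene, 3 of 13 member probe sets had an unadjusted p under 0.05, against 3.79% of all 13838, and 0% of all passed the adjusted threshold. They were Mef2c 1451506_at (unadjusted p 0.012), Mef2c 1451507_at (0.041) and Mef2d 1421388_at (0.048), each with an adjusted p of 0.99996 in limma. Since each probe set is set against the others of its gene, the 2 Mef2c results are not independent. With the litter as a block the adjusted p values of the 4 genes lay between 0.84 and 0.9994. In that fit 2 of the 13 member probe sets had an unadjusted p under 0.05 in limma, and 0 passed the adjusted threshold. The share over all probe sets in that fit was not counted.

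The ratio of the signals of 2 probe sets of 1 gene gave another view of the same values. For 2.6% of all 14457 such pairs the ratio did not overlap between the genotypes, and for 1 of the 17 pairs within the members it did not. That pair was Mef2c 1451507_at over 1451506_at, whose ratio in litters 1 to 4 was 1.03, 1.01, 0.953 and 1.04 for controls and 1.77, 1.10, 1.32 and 1.25 for transgenics. Every transgenic ratio lay above every control ratio, with the highest in litters 1 and 3, and the pair, singled out after its values were seen, has no test of its own.

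**Figure D3:**
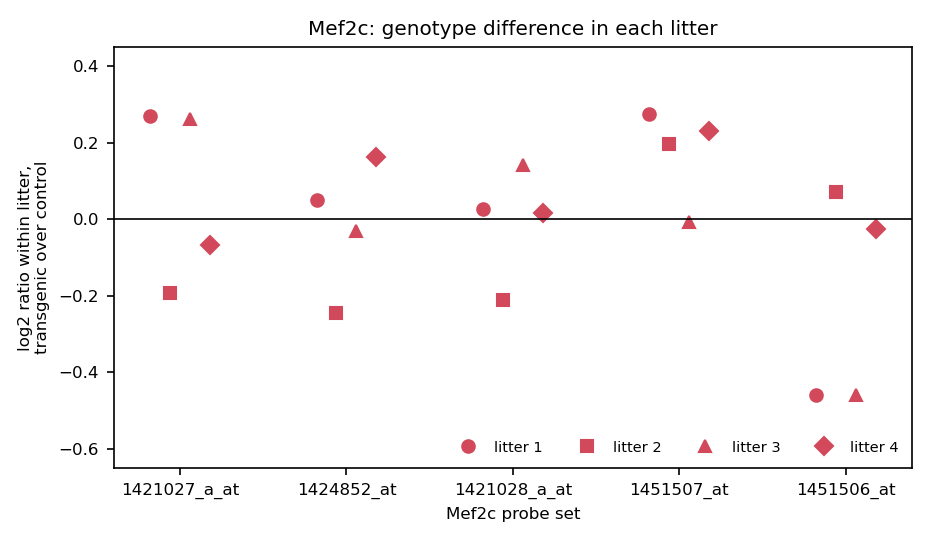
Log2 ratio of the transgenic over the control array within each litter (y axis, log2(signal + 32) scale) for the 5 Mef2c probe sets (x axis), 1 marker shape per litter. Probe set 1451507_at is above 0 in 3 litters, 1451506_at is at -0.46 in litters 1 and 3, and 1421027_a_at is above 0 in those same litters.

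Mef2d had 3 tested probe sets, all with lower means in transgenics. The brightest gave 850.1, 906, 999 and 891 in controls and 819, 923, 911 and 845 in transgenics, which overlapped, with a log2 fold change of -0.06 (95% interval -0.24 to 0.13). Probe set 1437300_at had a log2 fold change of -0.05. The dimmest, 1421388_at, gave 163, 159, 183 and 195 in controls and 119, 73.9, 207 and 96.8 in transgenics. It was lower in the transgenic array in 3 of 4 litters but highest of all in transgenic array 3. Its log2 fold change of -0.47 (95% interval -0.96 to 0.01) was the largest in size among the 16 tested probe sets, and the 2 brighter probe sets of the gene had intervals that did not reach it. With the litter as a block its interval was -0.91 to -0.03, and it was the 1 member of 16 with an unadjusted p under 0.05 in that fit (0.039, adjusted p 0.89 in limma), where 5.54% of all tested probe sets were.

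Hdac4, the repressor of the group, had 3 tested probe sets. The brightest gave 281, 410.3, 377 and 391 in controls and 328, 396, 341 and 420.5 in transgenics. The values of litter 1 were the lowest in both groups, and the log2 fold change was 0.03 (95% interval -0.26 to 0.32). Both dimmer ones, 1436758_at and 1447566_at, had log2 fold changes of -0.06 (95% interval -0.33 to 0.21) and -0.02 (95% interval -0.35 to 0.31). Each of the 3 Hdac4 probe sets was higher in the transgenic array in 2 of 4 litters, but not in the same 2. These were litters 1 and 4 for 1454693_at, 2 and 4 for 1436758_at, and 3 and 4 for 1447566_at.

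A second comparison asked whether the members differed between the 4 litters, each with 2 arrays, in a model that also held the genotype. None of the 16 member probe sets passed an adjusted p of 0.05 in the limma F test (lowest adjusted p 0.36, Panx3 1432860_at), where 0.484% of all tested probe sets passed. None had an unadjusted p under 0.05, against 14.6% of all tested. Between the highest and the lowest litter the brightest probe sets differed by 1.09-fold for Col10a1, 1.13-fold for Mef2c, 1.14-fold for Mef2d, 1.15-fold for Runx3, 1.16-fold for Panx3, 1.30-fold for Hdac4 and 1.60-fold for Mmp13. The litter order was not shared: litter 1 had the lowest mean of Mmp13, Hdac4 and Mef2d and the highest of Runx3 and Mef2c, while Panx3 was highest in litter 2. Col10a1 was highest in litters 1 and 4, with nearly equal mean signals of 8095 and 8120.

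Other transcripts did differ between the same litters. Alas2, the heme synthesis enzyme of red cell precursors, differed by 2.13-fold (adjusted p 0.0032 in limma) and was lowest in litter 1 and highest in litter 3. Ctsk, the collagen-degrading protease of osteoclasts, differed by 1.77-fold (adjusted p 0.0048) and was lowest in litter 1 and highest in litter 2. Ctsk and Alas2 were the only genes of the 9 cell type lists past the threshold between litters, and their part in any member's value was not tested. Litter 1 was low more widely. It had the lowest mean of the 4 litters for 27 of the 34 tested markers on the lists for cells other than chondrocytes. The 34 include Sp7, Ibsp, Mmp9 and Twist1, which are also counted below among the genes of the hypertrophic pathway. Litter 1 was also lowest for 1 of the 6 chondrocyte markers, for 3 of the 7 members (Mef2d, Mmp13 and Hdac4) and for 30.8% of all 11013 genes. Whether the low values of these members in litter 1 go with those markers was not tested. A test of whether the members differed less between litters than these genes was not made.

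**Figure D4:**
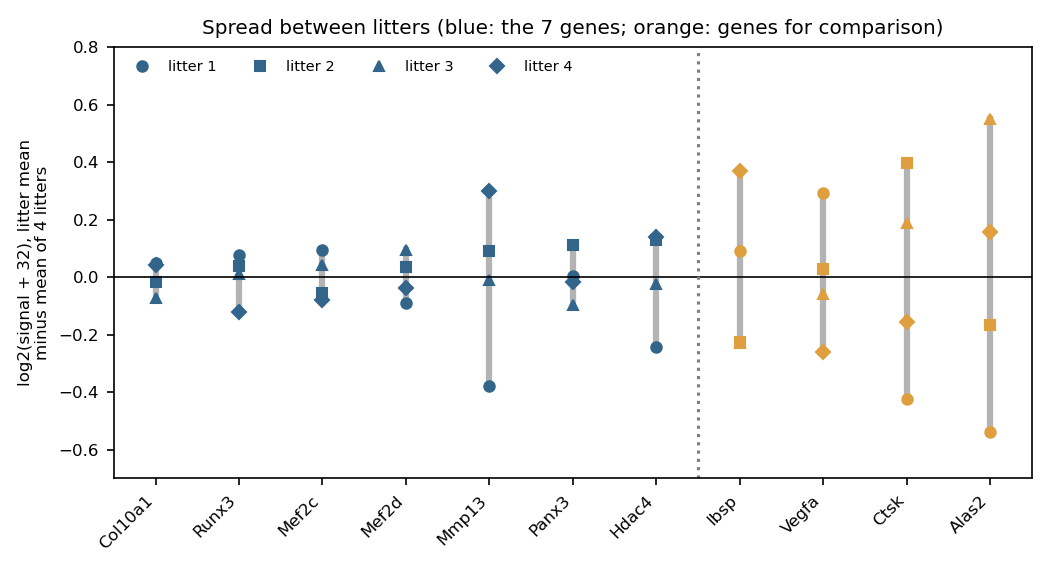
Mean log2(signal + 32) of each litter minus the mean of the 4 litters (y axis) for the 7 genes (blue) and 4 other genes (orange), with grey bars from the lowest to the highest litter. Col10a1, Runx3, Mef2c, Mef2d and Panx3 stay within 1.16-fold between litters, while Hdac4 spans 1.30-fold and Mmp13 1.60-fold. Ctsk spans 1.77-fold and Alas2 2.13-fold. The 4 other genes were picked for a small p in the litter test, so their wide spread follows from that choice.

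The members had correlations of both signs over the 8 arrays, which are too few to settle whether the members vary together. Among the 21 pairs of brightest probe sets, 9 correlations were positive and 12 negative, and by neither Pearson's r nor Spearman's rho did any pass an adjusted p of 0.05 in the exact permutation test. Runx3 and Mmp13 ran in opposite directions most closely, with Pearson's r of -0.83 (exact two-sided permutation p = 0.012, adjusted p = 0.25 over 21 pairs) and Spearman's rho of -0.90 (exact permutation p = 0.0046, adjusted p = 0.096). Without the 2 arrays farthest from the Runx3 median r was -0.82, and with values centred on their genotype group it was -0.83. Mmp13 and Hdac4 had an r of 0.71 (exact permutation p = 0.0497, adjusted p = 0.52), a rho of 0.62 (exact permutation p = 0.115, adjusted p = 0.63), and 0.54 without the 2 arrays farthest from the Mmp13 median. Values centred on their litter leave 4 differences and have no test here. They gave an r of -0.80 for Runx3 with Mmp13 and of -0.09 for Mmp13 with Hdac4. The largest r in size of the 21 pairs so centred was 0.90, for Panx3 with Hdac4, beside 0.45 without centring. The permutations ran over all orders of the 8 arrays and did not keep the litters together. After quantile normalization rho was -0.98 for Runx3 with Mmp13 (exact permutation p = 0.00040, adjusted p = 0.0083), past the threshold, while r was -0.90 (exact permutation p = 0.0025, adjusted p = 0.052). Col10a1 had an r of 0.26 with Panx3, and of 0.52 without the 2 arrays farthest from the Col10a1 median. It had an r of -0.31 with Mmp13, which was -0.09 after quantile normalization, where rho was 0.21.

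**Figure D5:**
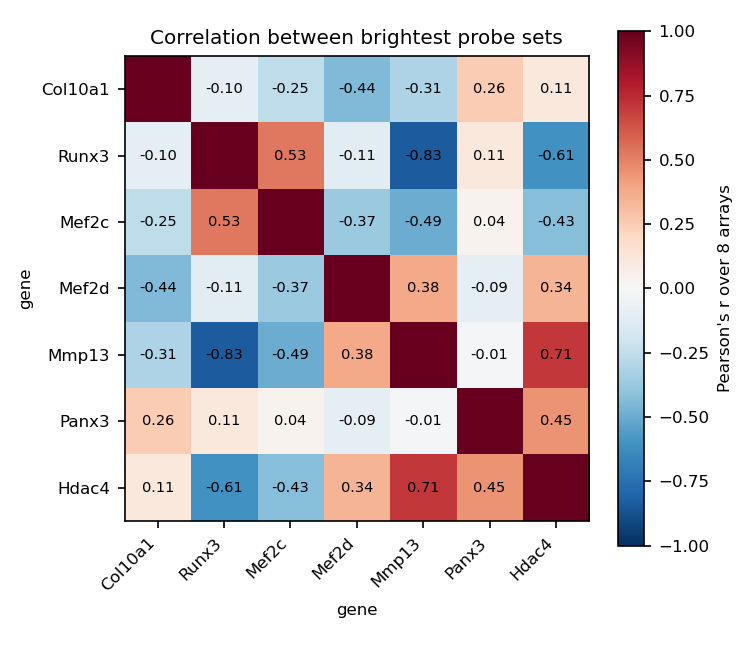
Pearson's r of log2(signal + 32) over 8 arrays between the brightest probe sets of the 7 genes (both axes), coloured from -1 (blue) to 1 (red). The lowest r is -0.83 for Runx3 with Mmp13 and the highest is 0.71 for Mmp13 with Hdac4.

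The genes whose brightest probe sets ran most like Col10a1 over the 8 arrays, out of 11012 compared, were Ap4b1, a subunit of a vesicle adaptor complex (r = 0.94), Det1, a ubiquitin ligase component (r = 0.92), and Klhl23, a kelch-like protein (r = 0.92). They are given as a description, with no test.

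Of 40 other genes of the hypertrophic pathway 37 had a probe set and 35 were tested, 19 higher and 16 lower in transgenics, with a median log2 fold change of 0.01 beside -0.0008 for all 11013 genes. None passed an adjusted p of 0.05, and 2 had an unadjusted p under 0.05, 5.71% of the list beside 2.95% of all genes. They were Alpl, the phosphatase of mineralising cells, at -0.31 (95% interval -0.51 to -0.12), and Hdac7, a class II deacetylase like Hdac4, at -0.30 (95% interval -0.56 to -0.05), each with an adjusted p of 0.9997 in limma. Foxa3, a forkhead factor of hypertrophic cells, had a value of -0.22 (95% interval -0.46 to 0.01). Cbfb, the partner subunit of Runx proteins, was at 0.04, and Mef2a, a relative of Mef2c, at 0.09.

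Between litters 8 of these 35 genes had an unadjusted p under 0.05, 22.9% of the list beside 15.1% of all genes, and none passed the adjusted threshold, beside 0.636% of all genes. The smallest p values belonged to Vegfa, the vessel growth factor of hypertrophic cartilage (1.47-fold between litters, adjusted p 0.10 in limma), Ibsp, a bone matrix protein (1.51-fold, adjusted p 0.12), and Zfp521, a zinc finger protein (1.22-fold, adjusted p 0.15). Vegfa was highest in litter 1 and lowest in litter 4, and Ibsp highest in litter 4.

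Markers of other cells were present in the pools, though Sp7, Ibsp, Mmp9 and Twist1 among them are also genes of the hypertrophic pathway list. Of the markers with a probe set, the tested ones were 5 of 5 for osteoblasts, 4 of 5 for osteoclasts, 6 of 6 each for skeletal muscle, endothelium and fibroblasts, 4 of 6 for macrophages, 2 of 3 for red cell precursors and 1 of 5 for lymphocytes. Summed signals of the muscle list lay between 15981 and 23140.4 in controls and between 16580 and 21158 in transgenics, and those of the endothelial list between 1283 and 1814 and between 1065 and 1504. Of the lymphocyte markers, cells in which Runx3 is also used, Cd8a passed the filter, with mean signals of 216 in both groups. Mean signals in controls and transgenics were 85.9 and 101 for Ptprc, 35.7 and 47.7 for Cd79a, 15.6 and 11.6 for Cd3e and 11.8 and 15.8 for Nkg7, all below the filter. In the fit without a block, 1 of the 40 tested markers had an unadjusted p under 0.05 in limma, beside 2.95% of all genes. It was the endothelial cadherin Cdh5, at 251 ± 47.3 over the 4 control and 153 ± 11.2 over the 4 transgenic arrays. The log2 fold change was -0.60 (95% interval -0.94 to -0.27, adjusted p 0.9997 in limma). With the litter as a block, 5 of the 40 had an unadjusted p under 0.05 in limma, beside 5.54% of all tested probe sets. Cdh5, Alas2, Slc4a1, an anion exchanger of red cells, and Ctsk were each lower in the transgenic array in 4 of 4 litters. The fifth, Ckm, the muscle creatine kinase, was lower in 1 of 4. The adjusted p values of these 5 markers in that fit lay between 0.70 and 0.89. Of all tested markers, 2 were higher and 4 lower in transgenics for endothelium, and 1 higher and 3 lower for osteoclasts. For muscle 4 were higher and 2 lower, and for red cell precursors 0 higher and 2 lower. Over all 11013 genes, 5469 were higher and 5544 lower. None of these lists had a gene past the adjusted threshold between genotypes. Their part in the member values was not tested.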

How the data were processed

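The authors deposited a linear intensity for each of 45101 probe sets on each of 8 one-colour arrays, computed with MAS5 per the submitters' processing notes, whose version is not given in the sources used here. On every array the trimmed mean, without 2% at each end, was 500.003, so the arrays were scaled alike. MAS5 subtracts mismatch signal, which leaves dim probe sets noisy. The 64 control probe sets were left out, and log2(signal + 32) was used, 32 being near the median 25th percentile of signal. Probe sets above the median of mean signal (22518) were tested in limma 3.58.1 under R 4.3.3, using statmod 1.5.0 for random blocks; lmFit was followed by eBayes (trend = TRUE) and Benjamini-Hochberg adjustment over all of them. Probe sets were named from GEO's platform annotation (34945 with 1 symbol, 932 with several, 9160 unnamed here), and symbols looked up by gene identifier in RefSeq (GRCm38.p6) changed for 0. Exact permutation tests ran over 70 label assignments or all orders of 8 arrays (Python 3.11.15, numpy 2.4.6); figures used matplotlib 3.10.9.

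The sample titles name no litter. They number the samples 1 to 4 in each group, and same-numbered arrays were taken to be the pair of a litter. Their deviations from the group means correlated by 0.28, 0.17, 0.04 and 0.14 in litters 1 to 4. The fit reported has no block; a blocked fit is an alternative. The number of arrays limits the precision: the 95% interval reached 0.24 to either side for the median member probe set. Named genes were all member probe sets, up to 3 genes of each list with the smallest p between genotypes or litters, and the 3 genes most like Col10a1; Cbfb, Mef2a and 4 dim lymphocyte markers were named outside this rule after their values were seen, for their relation to members. The members and lists were chosen with earlier results of these data known. The fits were tested on simulated data. Alternatives were the constant, the filter, the block, quantile normalization, the trend, the probe set rule, Xist as a covariate and arrays or litters left out.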

Additional observations from a re-analysis of the deposited data

How the results depend on the processing

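The counts of member probe sets called, 0 between genotypes and 0 between litters, stayed at 0 under all 22 and 17 alternatives run, with at most 2 and 1 unadjusted p values under 0.05, as did those of the 35 pathway genes under 13. Apart from the fixed litter block (5.54%), the share of all probe sets under 0.05 was not counted in these alternatives. Whether the members stand out in them can therefore not be judged. Of the 21 correlations 0 passed by Pearson's r under 4 alternatives (lowest adjusted p 0.052), but by Spearman's rho 1 passed after quantile normalization (Runx3 with Mmp13, adjusted p 0.0083). Centred on litters, an alternative added after seeing the data, the r of Mmp13 with Hdac4 turned to -0.091. With the litter as a replicate block the count of probe sets called was 0 too, so pairing changed no call, and the random block (correlation 0.22) gave 0. Of the 16 tested probe sets, 5 kept their sign in all alternatives: Mef2d 1434487_at and 1421388_at, Mef2c 1451506_at and 1451507_at, and Panx3 1432860_at. With Xist as a covariate the log2 fold change turned to -0.13 for Mef2c 1421027_a_at, 0.014 for Mef2c 1424852_at, 0.014 for Hdac4 1436758_at, 0.026 for Mef2d 1437300_at, 0.033 for Hdac4 1447566_at and 0.021 for Panx3 1456073_s_at, and was -0.89 for Mef2d 1421388_at (adjusted p 0.83), 0.29 for Mmp13, 0.22 for Hdac4 1454693_at, 0.18 for Col10a1, -0.10 for Runx3, -0.098 for Mef2c 1421028_a_at, -0.036 for Mef2d 1434487_at and -0.0065 for Mef2c 1451506_at. With arrays or litters left out the log2 fold change ranged from -0.092 to 0.23 for Mmp13, from -0.039 to 0.14 for Col10a1, from -0.063 to 0.019 for Runx3 and from -0.11 to 0.038 for Panx3 1456073_s_at. The ranges were -0.057 to 0.061 for Mef2c 1421028_a_at, -0.075 to 0.061 for Mef2c 1424852_at and -0.16 to 0.10 for Mef2d 1437300_at. They were -0.079 to 0.087 for Hdac4 1454693_at, -0.13 to 0.038 for Hdac4 1436758_at and -0.10 to 0.086 for Hdac4 1447566_at. The cause of these turns was not tested. Since Xist was lower on average in transgenics, the fit with Xist cannot cleanly tell it and genotype apart. Dim probe sets, Mmp13 among them, limit what could be seen.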
